A study of Mus musculus with 22 samples.

Results

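The pore-forming subunits of 2 channel families were followed across 6 cell types of the mouse brain. Hcn2, Hcn3 and Hcn4 encode hyperpolarization-activated, cyclic nucleotide-gated (HCN) channels, and Cacna1g, Cacna1h and Cacna1i encode the alpha-1G, alpha-1H and alpha-1I subunits of the low-voltage-activated, or T-type, calcium channels. The 6 genes were selected by symbol from the 55385 genes in the files, and all 6 were among the 20524 genes with enough counts to be tested. In GRCm38, Hcn2 (ENSMUSG00000020331.9) lies on the plus strand at chr10:79716634-79736108, Hcn3 (ENSMUSG00000028051.10) on the minus strand at chr3:89146074-89160196 and Hcn4 (ENSMUSG00000032338.9) on the plus strand at chr9:58823412-58863175. Cacna1g (ENSMUSG00000020866.17) lies on the minus strand at chr11:94408391-94474198, Cacna1h (ENSMUSG00000024112.16) on the minus strand at chr17:25374285-25433783 and Cacna1i (ENSMUSG00000022416.15) on the plus strand at chr15:80287238-80398279.

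HCN channels open when the membrane hyperpolarizes and carry a mixed sodium and potassium inward current, which cyclic AMP shifts to less negative voltages when it binds the channel. T-type channels open with small depolarizations from a negative membrane potential, inactivate quickly, and carry the low-threshold calcium spike beneath burst firing. Both families set excitability close to the resting potential, and neurons that fire rhythmically or in bursts are known to rely on them.

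All mice carried Rpl22 Fl/+, an allele that yields an epitope-tagged ribosomal protein after Cre recombination, so that ribosome-bound mRNA could be pulled from a whole tissue lysate (RiboTag). Tissue came from 6-week-old mice. Dentate gyrus granule cells were taken from the hippocampus and layer V cortical neurons from the cortex of Rbp4-Cre mice, cerebellar granule cells from the cerebellum of Gabra6-Cre mice, and inhibitory interneurons from the hippocampus of Dlx6a-Cre mice, with 2 mice pooled for each interneuron replicate. Cortical astrocytes and cortical microglia came from Aldh1-cre and Tmem119-cre mice, and per the study's methods both of these drivers are of the tamoxifen-inducible CreERT2 kind. The Cre driver decides which cells are tagged, and brain region, driver and cell type cannot be told apart where a cell type has a driver and region of its own. There were 3 biological replicates for each cell type and 18 libraries in the main analysis, with 38270477 to 71440915 estimated counts each. All interneuron and microglia libraries belong to batch 2, and the other libraries used here belong to batch 1.

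The labelled cell types were checked against marker genes, in TPM, a relative abundance in which each transcript is divided by its length and each library is scaled to the same total. For 5 of the 6 types all 4 markers lay above every library of the other types, whereas in layer V neurons this held for 1 of 4, Fezf2, and not for Rbp4, Etv1 or Bcl11b. The pan-neuronal markers Rbfox3, Snap25, Syt1 and Tubb3 summed to 3114 to 12801 TPM in the neuronal libraries, 748 to 986 TPM in astrocytes and 351 to 392 TPM in microglia. The oligodendrocyte markers Mog, Mag and Mbp summed to 1395 to 1465 TPM in the interneuron libraries and to at most 603 TPM in any other library. In the dentate gyrus libraries the CA pyramidal cell markers Wfs1, Fibcd1 and Neurod6 summed to 94.7 to 202 TPM. Astrocyte replicate 1 stood apart in choroid plexus markers, with Ttr at 3635 TPM and Folr1 at 20.5 TPM, against at most 11.6 TPM Ttr in the other astrocyte libraries and at most 271 TPM Ttr in the libraries of other cell types.

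Compared with glia, neurons carried more of 5 of the 6 channel mRNAs and less of 1. In the contrast of the mean of the 4 neuronal types with the mean of the 2 glial types, Hcn2 was 2.78-fold, Hcn3 1.72-fold, Hcn4 2.15-fold, Cacna1g 2.03-fold and Cacna1i 3.09-fold higher in neurons, and Cacna1h was 1.34-fold lower. Among all genes tested, 36.4% were called higher in neurons and 46.8% higher in glia, with a call meaning an adjusted p of at most 0.05 by edgeR's quasi-likelihood test with Benjamini-Hochberg adjustment. The median log2 fold change of the 6 genes was 1.06, beside -0.18 over all genes tested. In bulk ribosome-bound RNA of this kind, fewer cells of a type and less RNA per cell cannot be told apart. The contrast averages over cell types that differed from each other, and the levels of each gene by cell type follow.

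**Figure D1:**
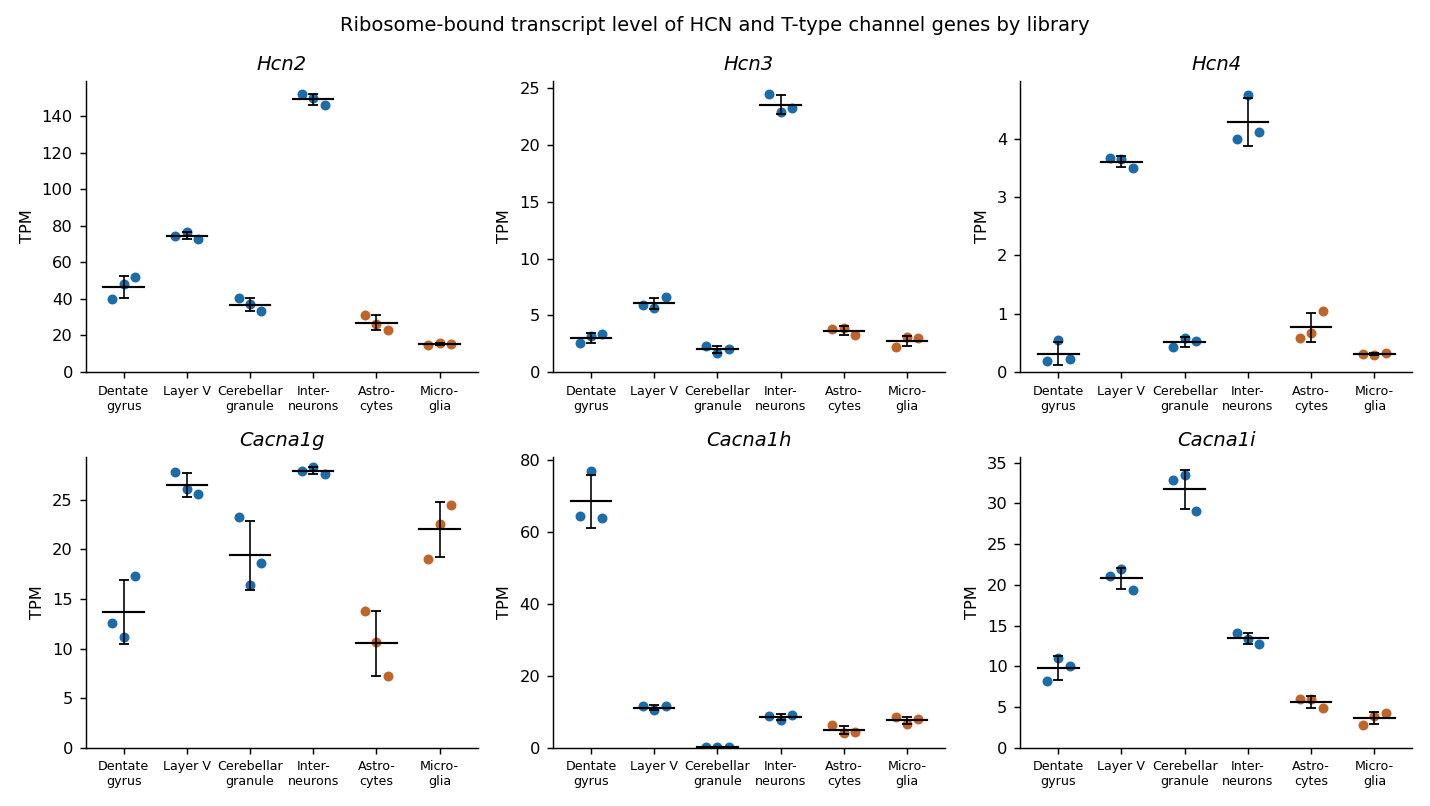
TPM of the 6 genes (y axes, each from 0) in the 3 libraries of each cell type (x axes). Points are libraries, blue for neurons and orange for glia, horizontal lines are means and error bars are SD over 3 replicates. Hcn2 and Hcn3 were highest in interneurons, at means of 149 and 23.6 TPM, Cacna1h in dentate gyrus granule cells at 68.6 TPM and Cacna1i in cerebellar granule cells at 31.8 TPM.

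Hcn2, which encodes a strongly cyclic AMP-sensitive subunit that is widespread in the brain, was the most abundant of the 3 HCN mRNAs in every library. Its level was 151.9, 149.6 and 145.7 TPM in the interneuron libraries and 74.2, 76.5 and 72.8 TPM in layer V neurons. It stood at 40.0, 48.3 and 51.8 TPM in dentate gyrus granule cells and at 40.2, 37.0 and 33.4 TPM in cerebellar granule cells. The interneuron and layer V libraries were separated from each other and from all others, whereas the ranges of the granule cell types overlapped. In glia the level was 31.3, 26.1 and 23.2 TPM in astrocytes and 14.6, 15.8 and 15.5 TPM in microglia, below every neuronal library. By the edgeR fit, Hcn2 in interneurons was 1.67-fold above layer V neurons (log2 fold change 0.74 ± 0.07 (SE), adjusted p = 1.1e-07) and 7.88-fold above microglia. Each neighbouring pair in the order interneurons, layer V, dentate gyrus, cerebellar granule cells, astrocytes and microglia was called. The smallest step was that of cerebellar granule cells over astrocytes (log2 fold change 0.23 ± 0.07, edgeR adjusted p = 0.0102). The step between the granule cell types was a small one (log2 fold change 0.24 ± 0.07, edgeR adjusted p = 0.0082), and its call was lost without the filter on low counts (adjusted p = 0.055) and on leaving out cerebellar granule cell replicate 2 or 3 (adjusted p = 0.115 and 0.199), dentate gyrus replicate 2 or 3 (adjusted p = 0.0885 and 0.165) or layer V replicate 1 (adjusted p = 0.052).

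Hcn3, whose channels respond little to cyclic AMP, was also highest in interneurons. It was at 24.5, 22.9 and 23.2 TPM in the interneuron libraries and at 5.87, 5.68 and 6.60 TPM in layer V neurons, a 3.31-fold difference in the edgeR fit (log2 fold change 1.73 ± 0.08, adjusted p = 3.9e-12). Granule cells of both kinds lay lower, at 2.54, 3.17 and 3.36 TPM in the dentate gyrus and 2.31, 1.68 and 2.06 TPM in the cerebellum. Glia were not below all neurons for this gene: astrocytes had 3.83, 3.89 and 3.24 TPM and microglia 2.22, 3.07 and 2.97 TPM. Hcn3 in astrocytes was 2.03-fold above cerebellar granule cells and 1.36-fold above dentate gyrus granule cells, both called by edgeR. Dentate gyrus granule cells and microglia did not differ beyond their spread (log2 fold change 0.06 ± 0.09, adjusted p = 0.561). The call of astrocytes over dentate gyrus granule cells was lost with limma on log2(TPM + 0.5) (adjusted p = 0.0975). With batch 2 libraries only, astrocytes and dentate gyrus granule cells had 1 library each. The log2 fold change of dentate gyrus minus astrocytes was then -0.28, against -0.44 in the main fit. That of astrocytes minus microglia was 0.25, against 0.50.

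Hcn4, the slowest of the family and the main pacemaker subunit of the sinoatrial node, was low in all cell types and at most 1.05 TPM in the libraries outside layer V neurons and interneurons. Its level was 3.665, 3.656 and 3.497 TPM in layer V neurons and 3.99, 4.76 and 4.12 TPM in interneurons. These were the high groups, and on the count scale they did not differ beyond their spread (log2 fold change of layer V minus interneurons 0.03 ± 0.24, edgeR adjusted p = 0.944). The remaining levels were 0.183, 0.547 and 0.216 TPM in dentate gyrus granule cells, 0.423, 0.584 and 0.531 TPM in cerebellar granule cells, 0.578, 0.664 and 1.05 TPM in astrocytes and 0.302, 0.300 and 0.332 TPM in microglia. Layer V neurons were 14.0-fold above dentate gyrus granule cells and 11.3-fold above microglia. Astrocytes were 3.25-fold above dentate gyrus granule cells and 1.81-fold above cerebellar granule cells, both called by edgeR. For dentate gyrus minus astrocytes the log2 fold change was -1.70 ± 0.30 (edgeR adjusted p = 6.0e-05), and it was -0.64 with limma on log2(TPM + 0.5). Rounded counts were as low as 37, 71 and 39 in the dentate gyrus libraries, of which replicate 2 was the high one. Without that replicate, Hcn4 in dentate gyrus granule cells was called below microglia (log2 fold change -0.88, edgeR adjusted p = 0.00884), which it was not with all libraries (-0.31 ± 0.32, adjusted p = 0.382). Other steps among these low groups changed their call as well: cerebellar granule cells against astrocytes was no longer called without astrocyte replicate 3 or cerebellar replicate 1 (adjusted p = 0.191 and 0.086), and dentate gyrus against cerebellar granule cells without dentate gyrus replicate 1 or 3 (adjusted p = 0.0865 and 0.0851). Cerebellar granule cells against microglia became a call without astrocyte replicate 3 or dentate gyrus replicate 2 (adjusted p = 0.0344 and 0.0179). Settings other than leaving out a replicate also moved these calls. With limma on log2(TPM + 0.5) cerebellar granule cells against astrocytes and against dentate gyrus granule cells were lost (adjusted p = 0.0795 and 0.0622). Without the filter on low counts cerebellar granule cells were called above microglia (edgeR adjusted p = 0.0178). Batch 2 libraries alone leave 1 library for each granule cell type. The log2 fold changes against microglia were then -0.86 for dentate gyrus and 0.52 for cerebellum. With limma the log2 differences of the high groups were smaller too, at -2.36 for dentate gyrus granule cells minus layer V neurons and 2.34 for layer V neurons minus microglia, against -3.81 and 3.495 in the edgeR fit.

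Taken as shares of the summed TPM of Hcn2, Hcn3 and Hcn4, Hcn2 led in all 6 cell types. Granule cells were the highest, with a share of 93.6% ± 0.7 (SD, n = 3) in the cerebellum and 93.3% ± 0.4 in the dentate gyrus, and layer V neurons had 88.5% ± 0.7, astrocytes 85.7% ± 1.7, interneurons 84.3% ± 0.1 and microglia 83.4% ± 1.6. Hcn3 held 13.3% ± 0.3 in interneurons and 5.1% ± 0.8 in cerebellar granule cells, and Hcn4 reached its highest share, 4.3% ± 0.1, in layer V neurons. The summed level of the 3 genes ran from 18.4 ± 1.1 TPM in microglia to 177 ± 3.7 TPM in interneurons. In the interneuron libraries these high levels stood beside the high oligodendrocyte markers given above, and the part of the latter in the HCN values was not tested. The interneuron subclass markers Pvalb, Sst, Vip, Npy and Lhx6 summed to 7710.5 to 9002 TPM there and to at most 403 TPM in any other library.

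Cacna1h, the T-type gene whose channel is known for its sensitivity to nickel, had the widest range of the 6 genes. It was at 64.6, 77.1 and 64.0 TPM in dentate gyrus granule cells and at 0.161, 0.151 and 0.0743 TPM in cerebellar granule cells, where the rounded counts were 20, 6 and 14. The 2 granule cell types thus lay at opposite ends of the order, 1078-fold apart in the edgeR fit (log2 fold change 10.07 ± 0.16, adjusted p = 7.2e-19). The other cell types lay between them, at 11.5, 10.5 and 11.5 TPM in layer V neurons, 8.73, 7.61 and 9.15 TPM in interneurons, 8.45, 6.55 and 7.85 TPM in microglia and 6.26, 4.14 and 4.37 TPM in astrocytes. Dentate gyrus granule cells were 5.66-fold above layer V neurons, the next in the order, and cerebellar granule cells were 87.5-fold below astrocytes. On the log2(TPM + 0.5) scale, where the added 0.5 exceeds the cerebellar level, these log2 differences were smaller, at 6.78 for dentate gyrus minus cerebellar granule cells and -3.09 for cerebellar granule cells minus astrocytes. Interneurons did not differ from microglia beyond their spread (log2 fold change 0.17 ± 0.10, adjusted p = 0.112), nor did astrocytes from microglia (-0.14 ± 0.10, adjusted p = 0.185). Both pairs were called under other settings. By edgeR, interneurons against microglia was called without interneuron replicate 2 (adjusted p = 0.00948) and without the filter on low counts (adjusted p = 0.0051). It was also called with the batch 2 library of each replicate sequenced in both batches (edgeR adjusted p = 0.0225). Batch 2 libraries alone leave 1 library for each of the other cell types, and the log2 fold change was then 0.21. Astrocytes, here all batch 1, were called below microglia, all batch 2, with limma on log2(TPM + 0.5) (-0.60, adjusted p = 0.0011). By edgeR they were also called below with protein-coding transcripts (-0.24, adjusted p = 0.0365) and without astrocyte replicate 1 (-0.29, adjusted p = 0.0138). The same held with batch as a term over all 22 libraries (-0.30, edgeR adjusted p = 0.0152). That fit counted both libraries of a replicate sequenced in both batches as separate samples, which overstates the replication. With batch 2 libraries only, where astrocytes had 1 library, the log2 fold change was -0.36.

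The lower mean of Cacna1h in neurons than in glia came with this split, since the other 3 neuronal types were not below either glial type. Dentate gyrus granule cells were 12.3-fold above astrocytes and 11.2-fold above microglia, layer V neurons 2.18-fold and 1.97-fold, and interneurons 1.24-fold above astrocytes. The direction depended on the scale: with limma on log2(TPM + 0.5) the mean over neurons was above that over glia (log2 fold change 0.32, adjusted p = 0.0025).

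Cacna1i, which encodes the slowest-gating of the T-type channels, ran the other way between granule cells. It was at 32.8, 33.4 and 29.0 TPM in cerebellar granule cells and at 8.17, 11.04 and 10.1 TPM in dentate gyrus granule cells. Layer V neurons had 21.1, 21.97 and 19.4 TPM and interneurons 14.1, 13.4 and 12.7 TPM. Each of these 4 groups was clear of the next, and all lay above astrocytes (6.01, 6.01 and 4.83 TPM) and microglia (2.80, 3.90 and 4.22 TPM). Every one of the 15 pairs of cell types was called for Cacna1i. Cerebellar granule cells were 3.60-fold above dentate gyrus granule cells (log2 fold change of dentate gyrus minus cerebellar granule cells -1.85 ± 0.09, edgeR adjusted p = 2.3e-12) and 7.16-fold above microglia. The smallest step was that of interneurons over dentate gyrus granule cells (log2 fold change 0.32 ± 0.09, edgeR adjusted p = 0.0037). With batch 2 libraries only, which leaves 1 dentate gyrus library, it shrank (dentate gyrus minus interneurons -0.12).

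**Figure D2:**
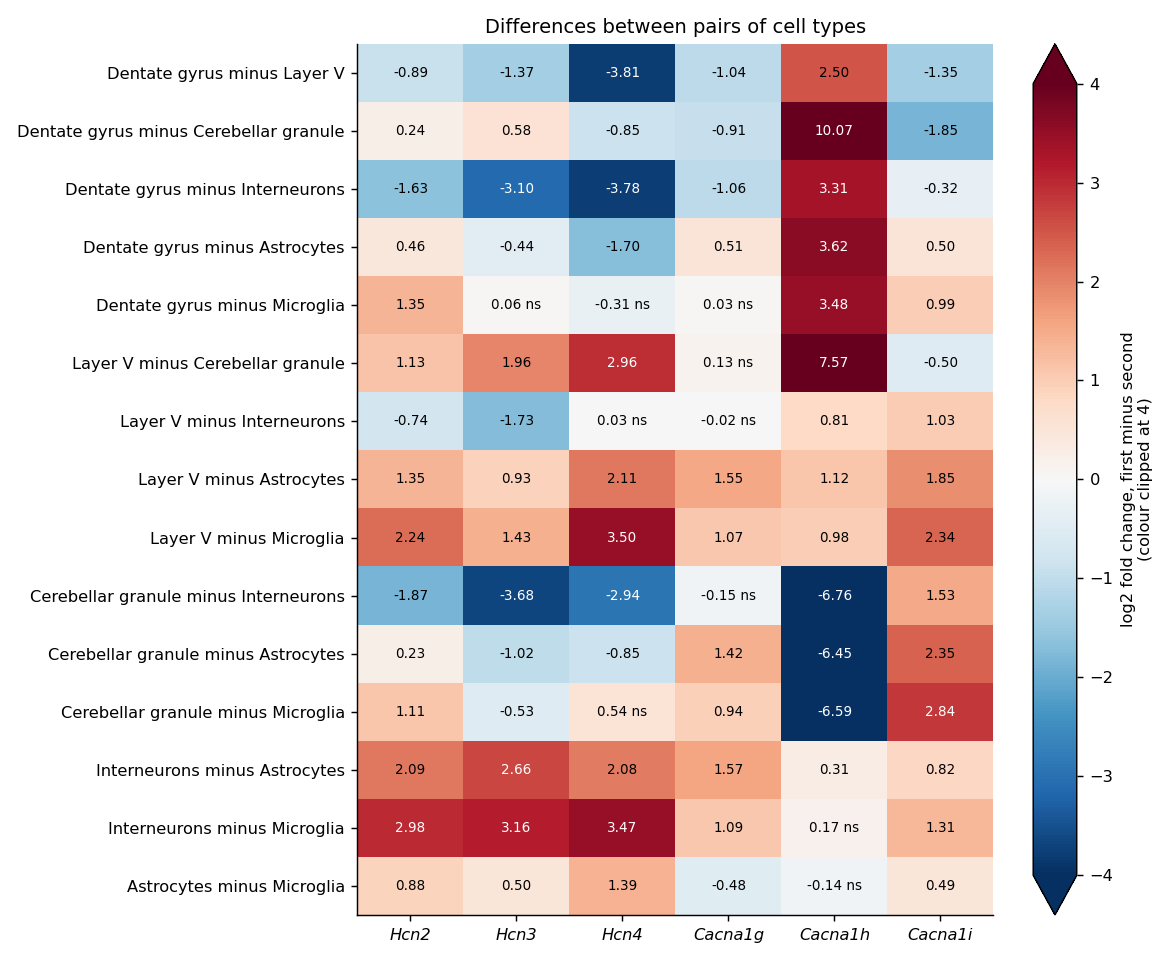
Log2 fold changes between pairs of cell types from the edgeR fit (colour and number, first type minus second), with the 15 pairs as rows and the 6 genes as columns. Cells marked ns had an adjusted p above 0.05, which was so in 10 of the 90, and the value at the extreme is that of Cacna1h in dentate gyrus minus cerebellar granule cells, 10.07.

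Cacna1g was the most even of the 6 genes in TPM. It was at 27.9, 28.3 and 27.6 TPM in interneurons, 27.9, 26.1 and 25.5 TPM in layer V neurons, 19.0, 22.6 and 24.5 TPM in microglia and 23.2, 16.4 and 18.6 TPM in cerebellar granule cells. Dentate gyrus granule cells had 12.6, 11.1 and 17.4 TPM and astrocytes 13.8, 10.7 and 7.21 TPM. By TPM, microglia thus lay among the neurons, and their range overlapped that of cerebellar granule cells. On the count scale the order was different: interneurons, layer V neurons and cerebellar granule cells did not differ from each other beyond their spread (adjusted p from 0.22 to 0.906 in the edgeR fit), and each was above microglia, layer V neurons by 2.10-fold. Dentate gyrus granule cells and microglia did not differ beyond their spread on that scale (log2 fold change 0.03 ± 0.11, adjusted p = 0.79), whereas limma on log2(TPM + 0.5) put microglia higher (-0.68, adjusted p = 0.0065), and it turned the sign of cerebellar granule cells minus microglia as well (-0.18, adjusted p = 0.413, against 0.94 ± 0.11 in the edgeR fit). With limma the calls of layer V neurons and interneurons over microglia and of dentate gyrus granule cells over astrocytes were lost (adjusted p = 0.234, 0.131 and 0.103), and cerebellar granule cells were called below interneurons (-0.53, adjusted p = 0.0298).

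Cacna1g TPM was split between long and short transcripts, in shares that differed by cell type. The files hold 16 transcripts of Cacna1g, 11 of them protein-coding and above 3000 bases, and these long coding transcripts held 69.7% ± 8.1 (SD, n = 3) of the gene's TPM in cerebellar granule cells, 57.3% ± 2.8 in interneurons, 54.8% ± 9.3 in the dentate gyrus and 49.1% ± 3.0 in layer V neurons, but 38.9% ± 5.7 in astrocytes and 24.2% ± 1.1 in microglia. Most of the rest lay on 3 short transcripts annotated as processed transcripts. Cacna1g-213, of 434 bases, held 28.4% ± 2.5 of the TPM in microglia, Cacna1g-215, of 749 bases, held 21.9% ± 2.2, and Cacna1g-214, of 797 bases, held 17.1% ± 2.6. Cacna1g-215 has no base outside the exons of the long coding transcripts and Cacna1g-213 has 63, whereas 619 of the 797 bases of Cacna1g-214 lie outside them. The share of Cacna1g-214 was also 12.3% ± 4.4 in astrocytes and 8.6% ± 3.1 in dentate gyrus granule cells, but at most 3.0% on average in the other types. Summed over the long coding transcripts, Cacna1g stood at 16.0 ± 1.0 TPM in interneurons, 13.4 ± 1.3 in cerebellar granule cells, 13.0 ± 0.2 in layer V, 7.36 ± 0.96 in the dentate gyrus, 5.34 ± 0.87 in microglia and 4.00 ± 0.81 in astrocytes.

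The other members were less mixed. Hcn4 has 1 transcript in the files, and Hcn2-202 held at least 99.8% of Hcn2 on average in each cell type. Hcn3-203, a retained-intron transcript of 909 bases, held 11.8% ± 3.6 of Hcn3 in interneurons, 14.8% ± 2.5 in layer V neurons and 25.0% to 35.2% on average in the other types. Cacna1i-202 held 73.0% to 88.7% and the short coding Cacna1i-201, of 779 bases, 11.1% to 17.3% of Cacna1i. The whole of Cacna1h-201 is contained in Cacna1h-205, so the split between these long coding transcripts of Cacna1h is not read. The coding Cacna1h-207, of 879 bases, held 25.6% ± 3.7 of Cacna1h in microglia and 7.0% to 8.9% elsewhere except in cerebellar granule cells, where the counts given above left it at 25.9% ± 28.0, the coding Cacna1h-202 at 22.6% ± 39.1 and the retained-intron Cacna1h-210 at 17.5% ± 30.4. The retained-intron transcripts Cacna1h-203 and Cacna1h-204 held 4.8% to 18.3% and 0% to 11.5% over the cell types.

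Which T-type gene led in a cell type depended on the transcripts counted. With all transcripts, Cacna1h held 74.4% ± 4.0 (SD, n = 3) of the summed T-type TPM in dentate gyrus granule cells and Cacna1i held 62.0% ± 4.4 in cerebellar granule cells, where Cacna1h held 0.25% ± 0.08. Cacna1g led in interneurons with 56.0% ± 1.2, in layer V neurons with 45.3% ± 0.8, in astrocytes with 49.4% ± 4.8 and in microglia with 66.0% ± 2.9. With long coding transcripts alone, the leading gene stayed the same in dentate gyrus granule cells (Cacna1h, 79.1% ± 2.9), cerebellar granule cells (Cacna1i, 65.8% ± 1.9), interneurons (Cacna1g, 50.8% ± 2.7) and microglia (Cacna1g, 42.2% ± 3.1). Cacna1i led instead in layer V neurons, with 43.6% ± 0.5 against 34.2% ± 0.2 for Cacna1g, and in astrocytes, with 36.1% ± 1.4 against 33.4% ± 1.6. Cacna1h then held 30.5% ± 1.9 in astrocytes and 32.5% ± 4.7 in microglia. The lead in glia was narrow in replicate 1 of each type: Cacna1g had 38.6% against 37.9% for Cacna1h in microglia, and Cacna1i 34.8% against 34.5% for Cacna1g in astrocytes. With all protein-coding transcripts, the short ones included, Cacna1h led in microglia. Over all transcripts the summed T-type level was 92.0 ± 7.0 TPM in dentate gyrus granule cells, 58.5 ± 2.0 in layer V, 51.3 ± 4.4 in cerebellar granule cells, 49.9 ± 0.79 in interneurons, 33.3 ± 3.1 in microglia and 21.1 ± 4.8 in astrocytes. Over long coding transcripts it was 71.5 ± 5.3 TPM in dentate gyrus and 39.2 ± 1.8 in cerebellar granule cells, and it was 37.9 ± 0.85 in layer V, 31.5 ± 0.3 in interneurons, 12.6 ± 1.2 in microglia and 11.9 ± 2.0 in astrocytes.

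**Figure D3:**
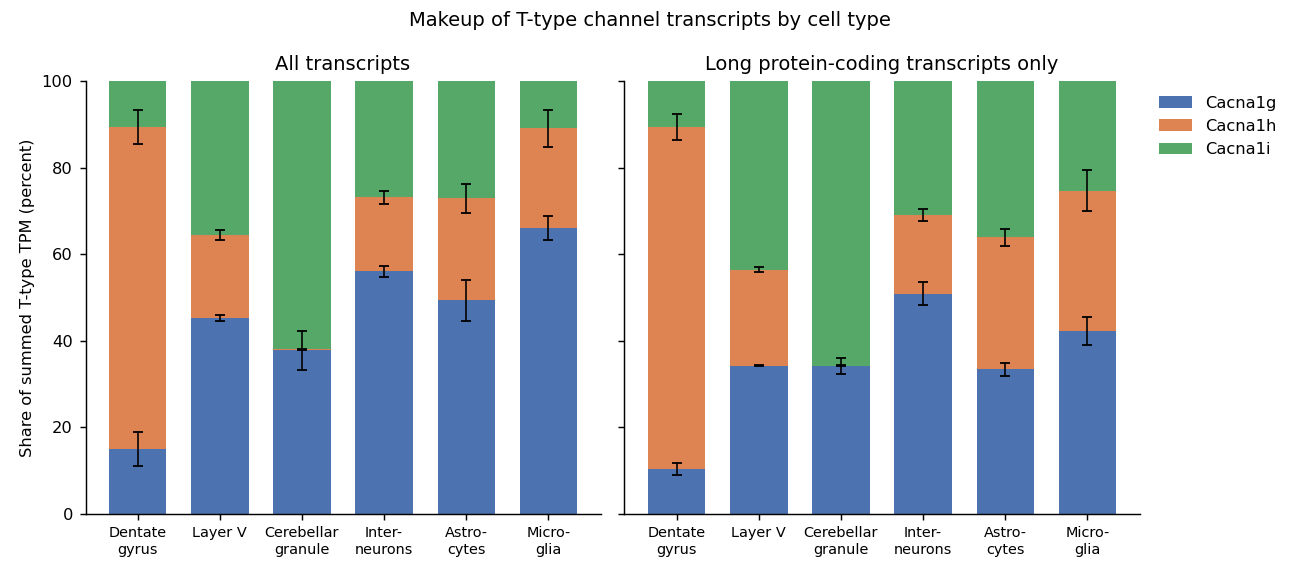
Mean share of Cacna1g, Cacna1h and Cacna1i in their summed TPM (y axis, percent) in each cell type (x axis), over all transcripts (left) and over protein-coding transcripts of at least 3000 bases (right). Error bars at the upper edge of the Cacna1g and Cacna1h segments are the SD of that gene's share over 3 replicates. Cacna1g filled 66.0% of the microglia bar on the left and 42.2% on the right, while the dentate gyrus and cerebellar bars kept their leading gene.

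The long coding transcripts of Cacna1g also differ by short segments of coding sequence whose length keeps the reading frame, and 5 such segments are missing from at least 2 of the 11 transcripts. Of these, 3 are shown, because they lie in the linkers between channel domains and were compared between cell types. The 69-base exon at chr11:94439709-94439777 (GRCm38, minus strand, as for the others) is present in 5 of the 11 transcripts and falls in the part that encodes the cytoplasmic linker between channel domains II and III. The 21-base extension at chr11:94425764-94425784, a longer end of an exon, is present in 5 transcripts, and the 54-base exon at chr11:94423671-94423724, which follows that exon, in 6. The latter segments encode part of the linker between domains III and IV. Each is shown with 20 bases of the flanking transcript sequence on either side, the segment in capitals. The flanks are those of Cacna1g-203 for both exons and of Cacna1g-211 for the extension, in which the 54-base exon is skipped.
69-base exon: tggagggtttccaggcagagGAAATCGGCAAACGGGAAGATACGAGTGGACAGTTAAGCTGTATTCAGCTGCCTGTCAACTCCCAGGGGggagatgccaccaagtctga
21-base extension: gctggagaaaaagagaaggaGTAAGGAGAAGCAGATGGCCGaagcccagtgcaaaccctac
54-base exon: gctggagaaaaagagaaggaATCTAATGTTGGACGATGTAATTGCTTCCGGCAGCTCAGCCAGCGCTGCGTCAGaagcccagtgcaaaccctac

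The flanks of the last pair are the same, because both segments are inserted at the same exon junction. The share of Cacna1g mRNA with the 54-base exon fell into separate ranges in different cell types. Of the TPM of long coding Cacna1g transcripts, those with this exon held 94.8%, 96.8% and 86.3% in the dentate gyrus libraries, 87.9%, 88.8% and 93.5% in interneurons and 90.5%, 88.8% and 90.8% in microglia. In layer V neurons the values were 49.3%, 51.0% and 52.4%, and in cerebellar granule cells 62.4%, 57.0% and 61.6%. These ranges lay below the first 3, while astrocytes, at 52.5%, 73.8% and 78.6%, spread across the gap. The 21-base extension followed the opposite order. Its share was 62.6%, 68.5% and 59.1% in layer V neurons and 61.9%, 61.6% and 58.5% in cerebellar granule cells, against 31.8%, 38.1% and 35.2% in the dentate gyrus, 36.4%, 37.6% and 37.8% in interneurons and 34.2%, 34.4% and 41.2% in microglia. Again the first pair was separated from the other 3 types, and astrocytes, at 73.6%, 60.5% and 44.8%, were the most scattered.

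Seen jointly, transcripts with the extension and without the 54-base exon held 47.9% ± 2.9 (SD, n = 3) in layer V neurons and 38.0% ± 2.2 in cerebellar granule cells, but 7.4% ± 5.6 in the dentate gyrus, 8.3% ± 2.4 in interneurons and 7.7% ± 3.2 in microglia. The reverse form, with the exon and without the extension, held 65.0% ± 3.1, 61.1% ± 0.6 and 61.1% ± 4.5 in the latter types and 35.3% ± 3.4 and 37.7% ± 3.0 in the former. Transcripts with neither segment held at most 4.8% in any library. The 69-base exon varied less, from 66.0% ± 6.0 in interneurons to 82.9% ± 2.0 in layer V neurons, whose 3 libraries lay above all others. Cacna1g-207 alone carries the 144-base and 135-base exons of the C-terminal part, and it held 18.7% ± 3.8 in layer V neurons to 39.6% ± 9.3 in microglia.

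Among the single transcripts, Cacna1g-201 held 7.0% to 16.5% of all Cacna1g TPM on average in each cell type. Cacna1g-211 held 23.5% ± 0.8 and 23.7% ± 3.7 of all Cacna1g TPM in layer V neurons and cerebellar granule cells and at most 4.8% on average in dentate gyrus granule cells, interneurons and microglia. Cacna1g-203 was at 0.0% in cerebellar granule cells and reached 19.3% ± 0.9 in dentate gyrus granule cells. These shares rest on 1280 to 4946 estimated counts a library on the long coding transcripts, divided among them by the quantifier, and the error of that division was not part of the SD. In the 4 replicates sequenced in both batches, the shares of the 3 printed segments differed between the libraries of a replicate by 0.40 to 13.7 percentage points, the most for the 69-base exon in dentate gyrus replicate 3.

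**Figure D4:**
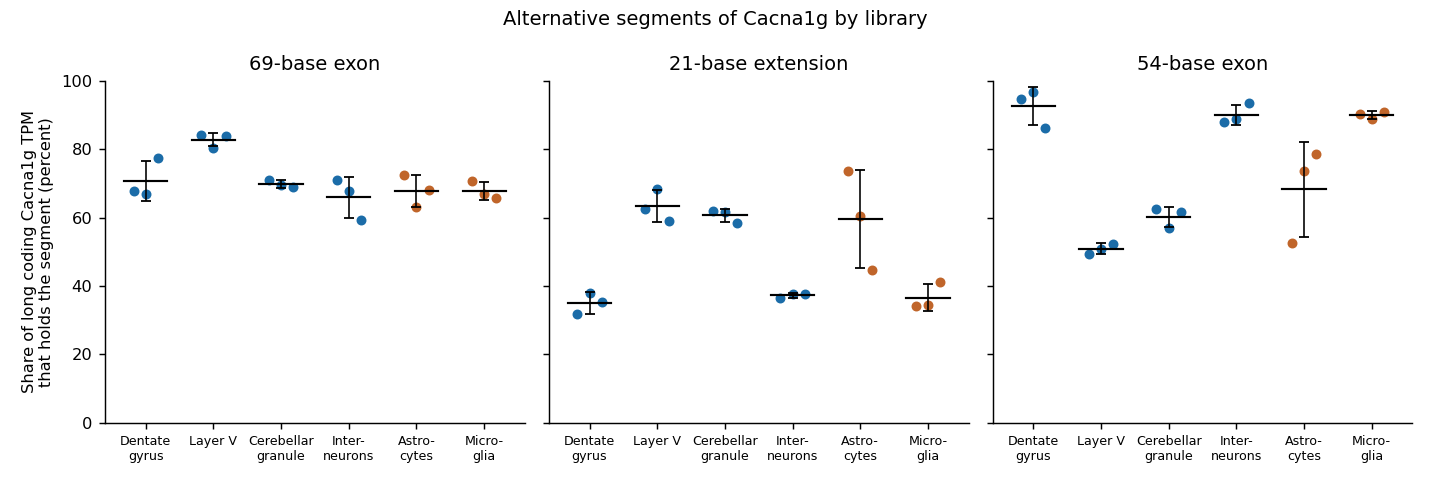
Share of long coding Cacna1g TPM on transcripts with the 69-base exon, the 21-base extension or the 54-base exon (y axes, percent) in each cell type (x axes). Points are libraries, blue for neurons and orange for glia, lines are means and error bars SD over 3 replicates. The 54-base exon lay at 86.3% or more in dentate gyrus granule cells, interneurons and microglia and at 62.4% or less in layer V neurons and cerebellar granule cells.

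The channel mRNAs of the glial libraries were set beside the neuronal markers found in the same libraries. In percent of the layer V mean, Rbfox3, Snap25, Syt1 and Tubb3 stood at 10.3% to 18.03% in astrocytes and 3.9% to 14.0% in microglia on average, and the layer V markers Fezf2, Rbp4, Etv1 and Bcl11b at 14.0% to 34.1% and 6.06% to 24.05%. Over long coding transcripts, Cacna1h was at 43.2% ± 7.3 (SD, n = 3) of its layer V level in astrocytes and 48.2% ± 2.6 in microglia, Cacna1g at 30.8% ± 6.3 and 41.1% ± 6.7, and Hcn3 at 45.5% ± 2.1 and 33.7% ± 1.3. Hcn2 was at 36.1% ± 5.5 in astrocytes and 20.5% ± 0.8 in microglia, and Cacna1i at 26.0% ± 3.5 and 19.4% ± 2.9. On this layer V scale, all libraries of both glial types lay above all 4 pan-neuronal markers for these 5 genes. However, Cacna1g and Cacna1i in astrocytes and Hcn2 and Cacna1i in microglia were on average within the range of the layer V markers. Hcn4 was at 21.2% ± 7.0 in astrocytes, where its lowest library was within the range of the markers, and at 8.6% ± 0.5 in microglia, inside that range. Vascular markers were highest in the same microglia libraries, with Cldn5, Pecam1 and Pdgfrb summing to 97.3 to 141 TPM and Acta2 and Myh11 to 12.9 to 27.4 TPM. Layer V was the only neuronal reference here, and each channel gene had a higher long coding level in some other neuronal type. Hcn2 and Hcn3 were at 149 and 20.8 TPM in interneurons against 74.5 and 5.15 TPM in layer V neurons. Relative to interneurons, the glial percentages of these genes would thus be lower. The interneuron subclass markers given above summed to 242 to 319 TPM in astrocytes and 79.8 to 95.8 TPM in microglia. The part of other cells' RNA in the glial channel levels was not tested.

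**Figure D5:**
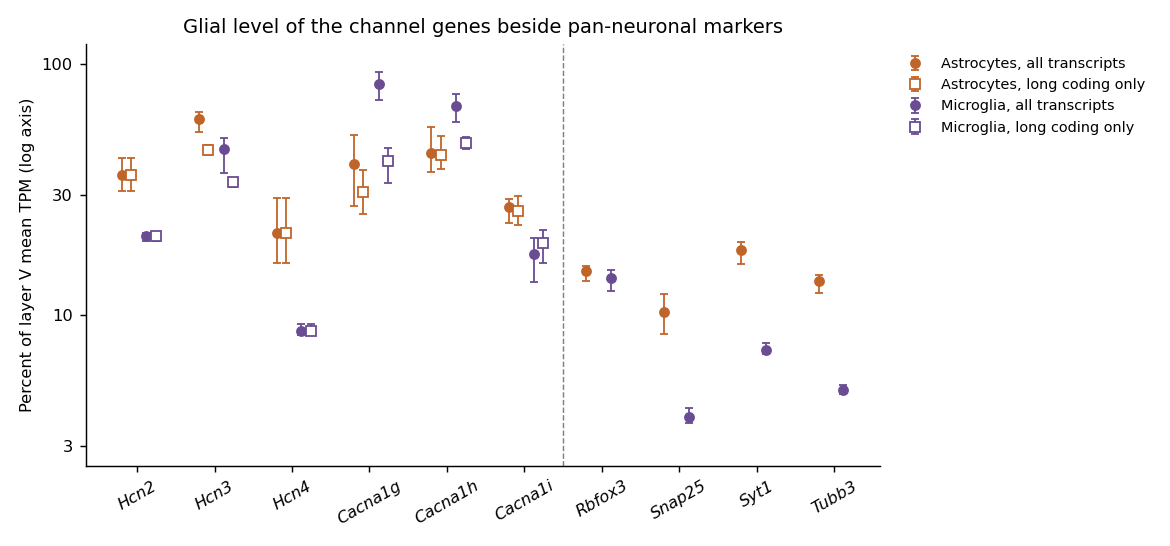
Level in astrocytes and microglia in percent of the layer V mean (y axis, log scale) for the 6 channel genes and, right of the dashed line, 4 pan-neuronal markers. Filled circles are all transcripts, open squares long coding transcripts, and bars run from the lowest to the highest of 3 libraries. Microglial Cacna1g was at 83.1% with all transcripts and at 41.1% with long coding ones, against 3.9% to 14.0% for the markers.

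Pairs of cell types were called for the 6 genes in 80 of 90 tests, 88.9%, in a background where most genes differed between any pair. All 6 genes were called between dentate gyrus granule cells and layer V neurons (63.4% of all genes tested), cerebellar granule cells (73.9%), interneurons (63.9%) and astrocytes (74.2%), but 3 of 6 between dentate gyrus granule cells and microglia (79.8%), where Hcn2, Cacna1h and Cacna1i were the higher ones in dentate gyrus. Layer V neurons differed in 5 genes from cerebellar granule cells (76.1%), in 4 from interneurons (60.7%) and in all 6 from astrocytes (77.2%) and microglia (83.2%). Cerebellar granule cells differed in 5 genes from interneurons (75.2%), in 6 from astrocytes (82.7%) and in 5 from microglia (85.5%). Interneurons differed in 6 genes from astrocytes (73.2%) and 5 from microglia (80.8%), and astrocytes from microglia in 5 (76.1%). Over 6 genes, counts of 3 to 6 cannot be read closely against shares of 60.7% to 85.5%. The 10 pairs not called were 4 for Cacna1g, 3 for Hcn4, 2 for Cacna1h and 1 for Hcn3. With batch 2 libraries only, which leaves 1 library each for dentate gyrus, layer V, cerebellar granule cells and astrocytes, all 6 genes kept their direction and call in neurons against glia, with Cacna1h at a log2 fold change of -0.22 (edgeR adjusted p = 0.044).

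Genes known to regulate these channels were compared in the same contrast. Of 29 symbols 27 were in the files and tested, the other 2, Irag1 and Irag2, being current names for Mrvi1 and Lrmp. There were 13 higher in neurons, 12 higher in glia and 2 not called, beside 36.4% and 46.8% of all genes, and the median log2 fold change was -0.03 against -0.18 over all genes tested.

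Among the 8 HCN partners 3 were higher in neurons and 5 in glia, with a median of -2.90. Without astrocyte replicate 1 there were 3 and 4, and the median was -1.45. Kctd3, an accessory protein of HCN3 channels, was higher in neurons (log2 fold change 1.53 ± 0.04 (SE)), from 47.3 ± 3.5 to 83.7 ± 4.2 TPM there against 21.9 ± 1.7 in astrocytes and 16.7 ± 2.1 in microglia. Nedd4l, a ubiquitin ligase, was highest in dentate gyrus granule cells at 225 ± 20.6 TPM (1.52 ± 0.03), but in interneurons (34.5 ± 0.9) it was below astrocytes (38.5 ± 3.0). Lrmp, which encodes an HCN4 regulator, was at 50.4 ± 3.0 TPM in microglia and at most 0.7 TPM on average elsewhere (-5.69 ± 0.24). The related Mrvi1 was at 1.9 ± 0.6 TPM in microglia and 1.2 ± 0.1 in interneurons (-2.95 ± 0.20). The actin-binding protein Flna and the repressor of neuronal genes Rest were highest in microglia too, at 106 ± 15.1 and 11.1 ± 1.0 TPM (-3.51 ± 0.16 and -3.57 ± 0.09). Kcne2, a beta subunit, was called higher in glia (-2.86 ± 0.97, edgeR adjusted p = 0.0118), but its 7.10 TPM in astrocyte replicate 1 went with the choroid plexus markers there, and without that library the value was 0.07 (adjusted p = 0.998). Pex5l, the HCN trafficking subunit known as TRIP8b, was named after its values were seen: it was at 61.4 ± 3.1 to 152 ± 7.9 TPM in the other neurons but at 2.58 ± 0.29 TPM in cerebellar granule cells, below astrocytes (28.5 ± 5.6) and microglia (18.8 ± 4.6).

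Adenylyl cyclases make the cyclic AMP that HCN channels bind. Of 10, 5 were higher in neurons, 3 in glia and 2, Adcy6 and Adcy10, not called, with a median of 0.23. Adcy1, which calcium and calmodulin stimulate, reached 451 ± 15.5 TPM in cerebellar and 347 ± 9.6 in dentate gyrus granule cells (2.98 ± 0.06). Adcy9 was also highest in these, at 26.1 ± 1.0 and 37.8 ± 1.7 TPM (1.48 ± 0.05), and Adcy8 was at 13.6 ± 0.4 TPM in cerebellar granule cells (1.21 ± 0.07). Adcy8 in dentate gyrus granule cells, at 5.5 ± 0.4 TPM, was near astrocytes (5.9 ± 0.4). Adcy2 was highest in astrocytes at 117 ± 5.8 TPM and at 0.3 TPM in cerebellar granule cells (-1.22 ± 0.04). Microglia, at 7.3 ± 0.5 TPM, were below the other neurons. These had 62.8 ± 4.7 TPM in the dentate gyrus, 45.2 ± 0.7 in layer V and 45.9 ± 0.8 in interneurons, so for Adcy2 the call of higher in glia does not describe microglia. Adcy7 and Adcy4 were highest in microglia, at 19.2 ± 0.8 and 7.2 ± 2.7 TPM (-2.62 ± 0.09 and -3.85 ± 0.23). For Adcy7, astrocytes (0.5 ± 0.2 TPM) were below interneurons (2.1 ± 0.2) and layer V neurons (1.4 ± 0.2).

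Of 9 T-type partners, 5 were higher in neurons and 4 in glia, with a median of 0.55. Kcnd2, a potassium channel subunit whose complexes T-type channels can join, was at 338 ± 11.4 TPM in cerebellar granule cells, where Cacna1i led, and 97.3 ± 4.3 TPM in dentate gyrus granule cells (3.33 ± 0.04). Its auxiliary subunit gene Dpp10 was highest in interneurons at 137 ± 8.9 TPM (2.45 ± 0.09). In dentate gyrus granule cells, at 12.7 ± 4.4 TPM, Dpp10 was on average below astrocytes (16.3 ± 1.8). The deubiquitinase Usp5, which acts on the Cacna1h channel, was at 130 ± 7.7 to 163 ± 1.6 TPM in neurons and 65.2 ± 2.0 to 69.7 ± 1.5 in glia (1.09 ± 0.03). Stac was below 2.5 TPM on average throughout (1.58 ± 0.28). Cachd1, an alpha2-delta-like subunit, was highest in astrocytes at 20.7 ± 7.0 TPM and was at 9.0 ± 0.7 TPM in interneurons and 0.2 TPM in cerebellar granule cells (-1.95 ± 0.08). Microglia, at 2.1 ± 0.2 TPM, were below interneurons and dentate gyrus granule cells (3.8 ± 0.7) and near layer V neurons (1.9 ± 0.6).

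The genes whose pattern was most like that of each member were listed by Pearson's r of log2(CPM + 1) over the 18 libraries, with CPM the normalized read count scaled to a common library total. The points share 3 libraries a cell type, so r mainly compares 6 group levels and is a description. For Cacna1h they were Pdzd2 (r = 0.995), Cttnbp2 (0.992) and Plekhg5 (0.987), each highest in dentate gyrus granule cells and lowest in cerebellar granule cells. For Cacna1i they were Golga7b (0.993), A330084C13Rik (0.991) and Psmc5 (0.988), and for Cacna1g Atp6ap2 (0.969), Pitpna (0.961) and Gls2 (0.958). For Hcn2 they were Slc4a3 (0.988), Hdac11 (0.987) and Apol8 (0.984), for Hcn3 Fam131c (0.989), Cbln4 (0.987) and Lhfpl5 (0.987), and for Hcn4 Ndufa6 (0.966), Plaat1 (0.960) and Adgrg6 (0.958). Between members, r was 0.83 to 0.86 among the HCN genes and 0.78 between Cacna1g and Cacna1i, but -0.49 between Cacna1h and Cacna1i.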

How the data were processed

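RiboTag mRNA was sequenced as stranded paired-end libraries. The submitters' processing notes name cutadapt 3.5 and kallisto 0.46.2, the latter run against GENCODE M24 transcripts per the methods. The values deposited by the authors were estimated counts and TPM for each transcript, and both were summed over the transcripts of a gene. Expected counts were rounded to whole numbers. Whether the quantification used strand is not given in the sources used here; Pklr and Tpsg1, on the other strand, share 711 bases with the span of Hcn3 and 158 with that of Cacna1h, and were at most 0.397 and 0.0585 TPM.

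Of 22 libraries, 18 were used, the batch 1 library where a replicate was sequenced in both batches. The batch 2 library of layer V replicate 1 is labelled male and the batch 1 library female, and both had Ddx3y under 0.1 TPM against at least 28.6 TPM in the other replicates sequenced in both batches. Xist was at 2.13 and 2.45 TPM in these layer V libraries and at most 0.049 TPM in those others, all labelled male. On these genes both layer V libraries were thus unlike the male ones. Gene counts were tested with edgeR 4.0.16 in R 4.3.3 (filterByExpr, TMM normalization, glmQLFit and glmQLFTest, 6 cell types in 1 fit), with Benjamini-Hochberg adjustment over all genes tested in each contrast. On simulated data for neurons against glia, all 50 genes changed at each of 2-fold, 4-fold, 0.5-fold and 0.25-fold were recovered, and 15 of 19164 unchanged genes were called. The changed genes were drawn from those with a mean expected count above 50. All genes had the same dispersion, and cell types within neurons or within glia did not differ. Recovery at low counts or with such differences was therefore not covered. Errors of fold changes are SE on the log2 scale. Alternatives used DESeq2 1.42.0, RLE size factors, limma 3.58.1 on log2(TPM + 0.5), no filter, protein-coding transcripts, other batch choices, a replicate block and leaving out each replicate.

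The named genes are the 6 members, partners called with a log2 fold change of at least 1 in size and a mean of at least 1 TPM in some cell type, the 3 genes most like each member and transcripts holding at least 10% of a member's TPM in some cell type. Members, lists and tests were chosen with earlier results of these data known. HCN shares are among the 3 HCN genes named; other HCN genes were not analysed here. Shares of Cacna1g segments carry no test. Transcript structures and sequences came from GENCODE M21 and the GRCm38 genome, in which all 39 transcripts of the members had the same versioned identifiers. Of the oligodendrocyte marker list, 1 gene is not reported here and was left out of its sum.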

Additional observations from a re-analysis of the deposited data

How the results depend on the processing

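The counts of calls held under all 27 alternatives. In neurons against glia 6 of the 6 channel genes were called throughout, 5 higher in neurons except with limma on TPM, where all 6 were. Over the 15 pairs of cell types, calls ran from 78 to 81 on leaving out 1 replicate and from 76 to 81 over the other settings, and partner calls from 24 to 25 and from 22 to 25. The main fit did not pair samples by replicate number, and with a replicate block 6, 80 and 25 calls were made. The correlation of same-numbered deviations ran from -0.07 to 0.22 over 45 pairs of libraries, with a median of 0.09 and 21 above 0.1. This does not settle whether some libraries are paired. Whether dentate gyrus and layer V libraries, both from Rbp4-Cre mice, came from the same mice is not given in the sources used here. The leading gene of a family, compared in 12 combinations of family and cell type, was the same in 9 with protein-coding transcripts only, in 10 with estimated counts in place of TPM, in 10 with protein-coding transcripts of at least 3000 bases (chosen after seeing the data) and in 12 on leaving out any replicate. Of 3077 single-gene values under an alternative, 3036 kept direction and side of the threshold, 20 lost the call, 16 gained one and 5 turned direction: with limma on TPM, Cacna1g in dentate gyrus granule cells minus microglia (-0.68) and cerebellar granule cells minus microglia (-0.18) and Cacna1h in neurons minus glia (0.32), and Kcne2 in neurons minus glia (-3.33 to 0.071 on leaving out 1 replicate, the highest without astrocyte replicate 1) with batch 2 libraries only (0.46, chosen after seeing the data). Limma on TPM moved the median of all genes in neurons minus glia from -0.18 to 0.08. TPM gives short transcripts more weight by its construction, and the added 0.5 exceeds the mean Cacna1h level of 0.13 TPM in cerebellar granule cells. The cause of the changes was not tested. Cacna1h in cerebellar granule cells and Hcn4 in dentate gyrus granule cells rest on the fewest counts.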
